A study of Mus musculus with 12 samples.

Results

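The genes that set atrial apart from ventricular heart muscle were followed in ventricles of mouse embryos with reduced Mib1. They are 9 genes named by symbol: the myosin light chains Myl7, Myl4, Myl2 and Myl3, the myosin heavy chains Myh6 and Myh7, the nuclear receptors Nr2f1 and Nr2f2, and the granule enzyme Pam. All 9 were found among the 38293 genes of the table, and all 9 passed the filter on low counts that left 13964 genes for testing. RNA with a polyA tail was sequenced from ventricles at stage E15.5 in 4 genotypes, with 3 pools per genotype and 4 pairs of ventricles in a pool. The wild-type embryos (WT) are described by no altered allele. The triple heterozygote carried Mib1 R530X, Apcdd1 V150I and a missense allele of Asxl3, each over a normal copy. The labels number the Asxl3 change both as M1361V and as M1415V. The Cre control carried Mib1 flox/+ with Tnnt2-Cre/+, and the Mib1 mutant carried Mib1 R530X/flox with the same Tnnt2-Cre/+.

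Mib1 is a ubiquitin ligase that lets Notch ligands signal to neighbouring cells. Tnnt2-Cre deletes floxed DNA in cardiomyocytes, whereas the R530X allele is present in every cell of its carriers. The Mib1 mutant therefore differs from the Cre control in cells other than cardiomyocytes too. WT embryos lack Tnnt2-Cre and the floxed allele, so the effect of either, or of a preparation that differed between the crosses, cannot be told apart in the comparison of the Cre control with WT. A pool averages several embryos, and in bulk ventricle fewer cells of a type and less RNA per cell cannot be told apart.

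A myosin molecule of working heart muscle holds a pair of heavy chains, each with a regulatory and an essential light chain. Atria and ventricles use different genes for these places. Myl7 and Myl4 encode the atrial regulatory and essential light chains, while Myl2 and Myl3 encode their ventricular counterparts. Myh6 encodes the fast alpha heavy chain, which mouse atria always use and ventricles take up around birth, and Myh7 encodes the slow beta heavy chain of the fetal ventricle. Nr2f1 and Nr2f2 (COUP-TFI and COUP-TFII) are orphan nuclear receptors that promote atrial identity in cardiomyocytes, and Nr2f2 is also active in venous endothelium. Pam amidates peptide hormones and is a major membrane protein of the atrial granules that store natriuretic peptide.

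The members of each pair are related in sequence, which bears on how well short reads can be divided between them. The coding sequences of Myh6 and Myh7 were identical at 91.6% of aligned bases, those of Nr2f1 and Nr2f2 at 83.1%, those of Myl4 and Myl3 at 77% and those of Myl7 and Myl2 at 62.3%. Reads were 60 bases long. Of the 60-base windows in the transcripts of Myh6, 16.9% also occur in Myh7, and 13.1% of the windows of Myh7 occur in Myh6. No window of Myl7, Myl4, Myl2, Myl3 or Nr2f1 occurs in another gene, and the shares were 0.233% for Nr2f2 and 0.595% for Pam. Below are 60-base windows of the myosin pairs that hold the median number of differences for their pair, with the letters that differ in capitals. They show how many differences a typical read offers: 3 for the heavy chains, 21 for the regulatory light chains and 13 for the essential ones. Positions count from the first base of the start codon in GENCODE transcripts on GRCm38.
Myh6, coding bases 199 to 258: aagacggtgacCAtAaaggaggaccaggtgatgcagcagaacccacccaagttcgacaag
Myh7, coding bases 199 to 258: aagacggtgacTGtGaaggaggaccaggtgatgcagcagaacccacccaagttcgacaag
Myl7, coding bases 43 to 102: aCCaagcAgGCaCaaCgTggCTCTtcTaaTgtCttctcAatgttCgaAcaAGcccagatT
Myl2, coding bases 19 to 78: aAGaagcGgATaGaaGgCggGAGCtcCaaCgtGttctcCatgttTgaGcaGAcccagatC
Myl4, coding bases 148 to 207: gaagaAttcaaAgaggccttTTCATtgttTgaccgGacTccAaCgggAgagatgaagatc
Myl3, coding bases 181 to 240: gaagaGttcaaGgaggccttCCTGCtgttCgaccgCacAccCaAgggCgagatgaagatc
The division of reads between Myh6 and Myh7 therefore rests partly on an estimate, and the light chain values do not depend on that division.

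Estimated reads in genes numbered 10103548 to 22157720 per library, and 1 read was worth 0.0452 to 0.0991 CPM (counts scaled to a common library size). Mib1 itself stood at 126 to 145 CPM in WT, 57.9 to 74.1 in triple heterozygote pools, 101 to 108 in Cre control pools and 50.1 to 54.8 in Mib1 mutant pools. The summed CPM of 10 cardiomyocyte markers was 25201 to 29402 in 11 pools and 20332 in Mib1 mutant replicate 1. That pool was also the lowest of the 12 for Myl4, Myl2, Myl3, Myh6 and Myh7. Xist, a transcript of the inactive X chromosome of females, was near 0 in it (0.095 CPM) and in Cre control replicate 1 (0.387 CPM). Differences below are log2 fold changes with their standard error (SE) from edgeR's quasi-likelihood test, p-values carry Benjamini-Hochberg adjustment over all 13964 genes (edgeR adjusted p), and a gene passed at an adjusted p under 0.05.

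Of the 9 chamber genes, 1 passed in the comparison of Mib1 mutant with Cre control pools: Pam, which fell. Over all genes 1.5% passed in that comparison, 0.909% upward and 0.594% downward. Unadjusted p-values were under 0.05 for 4 of the 9, namely Myl7 (higher), Myl2, Myl3 and Pam (lower), against 14% of all genes. In the triple heterozygote against WT 0 of 9 passed with edgeR, where 0.0215% of all genes did; 1 of 9 had an unadjusted p under 0.05, against 8.66% of all genes, and DESeq2 and limma-voom called 0. The Cre control against WT gave 0 of 9 with edgeR and limma-voom and 1 (Pam) with DESeq2. Over all genes 0.279% passed there with edgeR, and DESeq2 called more genes in total (given below). An unadjusted p under 0.05 was found for 1 of 9 with edgeR, against 8.43% of all genes. For the difference between the effects in the Mib1 mutant and the triple heterozygote, 0 of 9 passed with edgeR, DESeq2 or limma-voom and 2 had an unadjusted p under 0.05, where 0.516% of all genes passed with edgeR and 13.8% had such an unadjusted p. The median log2 difference of the 9 was -0.10 in Mib1 mutant pools, 0.04 in triple heterozygote pools and -0.08 between the control groups, beside medians of 0.005, 0.000 and -0.001 over all genes. Both comparisons that involve the Cre control share its 3 pools, as both that involve WT share theirs.

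**Figure D1:**
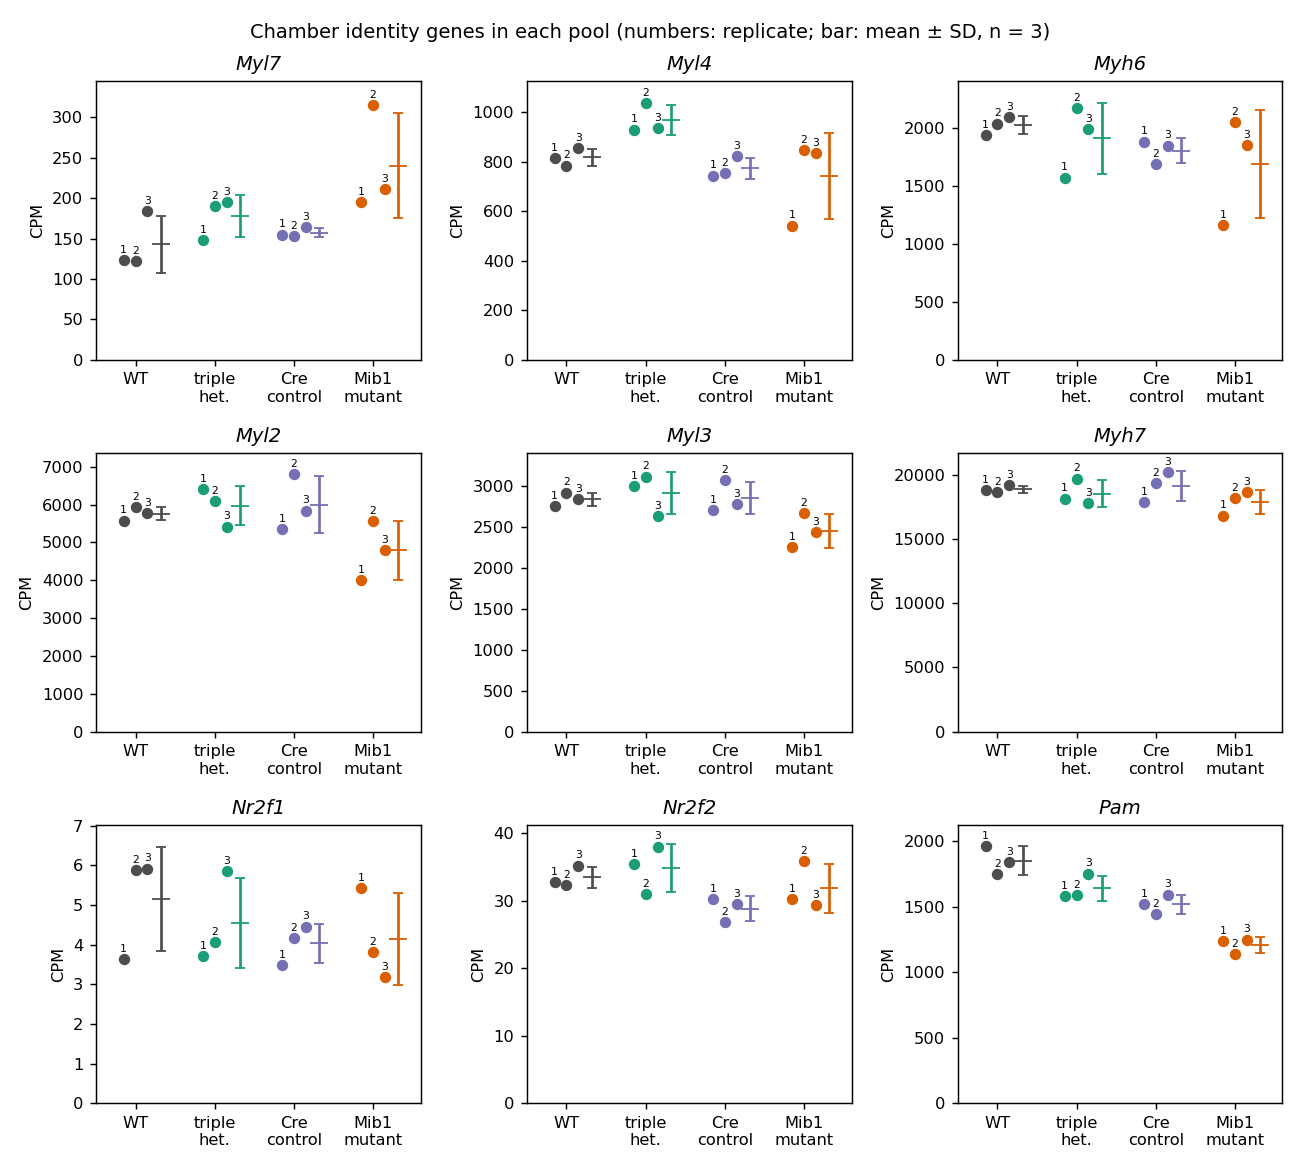
CPM (y axis, from 0) of the 9 chamber genes in each pool, by genotype (x axis); numbered points are replicates, and the bar beside them is the mean ± SD (n = 3 pools). Myl7 is highest in Mib1 mutant replicate 2 at 315 CPM, Pam is lowest in the 3 Mib1 mutant pools at 1139 to 1251 CPM, and Mib1 mutant replicate 1 lies lowest for the other 5 myosin genes.

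Myl7, the atrial regulatory light chain (ENSMUSG00000020469; chromosome 11, 5896637 to 5898782, minus strand), had the largest fold difference of the 9 in Mib1 mutant pools but did not pass the adjusted threshold. Its level was 123, 122 and 184 CPM in the WT pools, 148, 190 and 195 in triple heterozygote pools, 155, 153 and 164 in Cre control pools and 195, 315 and 211 in Mib1 mutant pools. All 3 Mib1 mutant pools lay above all 3 Cre control pools, an upward separation that 8.86% of all genes also showed. The means were 240 ± 65 against 158 ± 6.02 CPM (SD, n = 3), a difference of 0.61 (SE 0.18, 95% interval 0.23 to 0.98) with an edgeR adjusted p of 0.111. Without Mib1 mutant replicate 2, which held the most Myl7, it was 0.36 (edgeR adjusted p 0.21), and with no filter on low counts it passed (0.60, edgeR adjusted p 0.00142). Triple heterozygote and WT pools overlapped and the difference was 0.32 (SE 0.18, edgeR adjusted p 0.61). The difference between the effects was 0.29, with a 95% interval of -0.24 to 0.83 (edgeR adjusted p 0.615), so neither a shared nor a separate response can be read from it.

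Sln, Mybphl and fibroblast markers were high in some of the pools where Myl7 was high. Sln, the atrial regulator of the calcium pump, was between 0.69 and 7.46 CPM and was highest in Mib1 mutant replicate 2 (7.46) and WT replicate 3 (7.23), the pools with the most Myl7 of their groups. In the triple heterozygote replicate 3 was likewise highest for Sln (5.05), whereas in the Cre control Sln was highest in replicate 2 and Myl7 in replicate 3. Mybphl, also an atrial list gene, was highest in the pool with the most Myl7 in all 4 groups. Those pools held 1.97 (WT), 3.57 (triple heterozygote), 1.76 (Cre control) and 2.05 CPM (Mib1 mutant), so its reads were few. Fgf12, of the same list, was highest in those pools of the triple heterozygote (3.07) and Mib1 mutant (3.26). In WT and the Cre control Fgf12 was highest in replicate 1 (1.65 and 0.58). Other genes of that list did not all follow this order. The summed level of 9 fibroblast markers was 4732 to 5899 CPM in Mib1 mutant pools against 4333 to 4401 in Cre control pools. Within the Mib1 mutant it was again highest in replicate 2. In the triple heterozygote and the Cre control it was highest in replicate 3 (6258 and 4401 CPM), the pool with the most Myl7 of each group (195 and 164 CPM). The Cre control pools were close together, with fibroblast sums of 4333, 4373 and 4401 CPM and Myl7 at 155, 153 and 164. Triple heterozygote replicate 2 held nearly as much Myl7 as replicate 3 (190 CPM). In WT that sum was highest in replicate 2 (4927 CPM), the pool with the least Myl7 (122 CPM), against 4441 in replicate 3. With edgeR 0 of those 9 fibroblast markers passed, and DESeq2 and limma-voom called 0. An unadjusted p under 0.05 was found for 2, against 14% of all genes, and all 9 were detected. The part of the atrial genes or the fibroblast markers in the Myl7 values was not tested. Expressed per 1000 CPM of the cardiomyocyte markers, Myl7 was 9.57, 12.2 and 8.38 in Mib1 mutant pools against 5.76, 5.21 and 5.97 in Cre control pools, 1.76-fold higher, again without overlap; the exact two-sided permutation p was 0.1, the smallest that 3 against 3 pools allow.

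Myl4, the atrial essential light chain (ENSMUSG00000061086; chromosome 11, 104550663 to 104595753, plus strand), differed little in the Mib1 mutant. It stood at 815, 785 and 854 CPM in WT, 930, 1038 and 935 in triple heterozygote pools, 744, 756 and 823 in Cre control pools and 542, 848 and 835 in Mib1 mutant pools. The Mib1 mutant minus Cre control difference was -0.06 (SE 0.13, edgeR adjusted p 0.882), and without Mib1 mutant replicate 1 it turned to 0.11. Every triple heterozygote pool lay above every WT pool, as it did upward for 7.67% of all genes. The means were 968 ± 60.7 against 818 ± 34.6 CPM (SD, n = 3), a difference of 0.24 (SE 0.13, 95% interval -0.03 to 0.51) that did not pass (edgeR adjusted p 0.6). Per 1000 CPM of the cardiomyocyte markers the triple heterozygote again lay above WT without overlap (means 35.8 and 30, exact permutation p 0.1, the smallest possible).

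Myl2, the ventricular regulatory light chain (ENSMUSG00000013936; chromosome 5, 122100951 to 122113472, plus strand), was lower in the Mib1 mutant without passing. Its pools held 5575, 5934 and 5772 CPM in WT, 6409, 6101 and 5419 in triple heterozygote pools, 5347, 6812 and 5843 in Cre control pools and 4010, 5561 and 4798 in Mib1 mutant pools. Mib1 mutant replicate 2 lay within the range of the Cre control, and the other Mib1 mutant pools lay below it. The difference was -0.33 (SE 0.11, 95% interval -0.55 to -0.10) with an edgeR adjusted p of 0.162. It passed without Mib1 mutant replicate 2 (-0.44, edgeR adjusted p 0.0279) and with no filter on low counts (-0.33, edgeR adjusted p 0.0406). Against the effect in the triple heterozygote, which was 0.05 (SE 0.11), the Mib1 mutant effect differed by -0.38 (95% interval -0.70 to -0.06, edgeR adjusted p 0.296).

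Myl3, the ventricular essential light chain (ENSMUSG00000059741; chromosome 9, 110741861 to 110769798, plus strand), followed Myl2 closely. It held 2753, 2913 and 2832 CPM in WT, 2994, 3108 and 2627 in triple heterozygote pools, 2697, 3071 and 2772 in Cre control pools and 2253, 2661 and 2434 in Mib1 mutant pools. All Mib1 mutant pools lay below all Cre control pools, a downward separation shared by 7.75% of all genes. The difference was -0.22 (SE 0.08, 95% interval -0.38 to -0.05) at an edgeR adjusted p of 0.206. Over the 12 pools the log2 CPM of Myl3 and Myl2 had a Pearson r of 0.96, and of 0.92 after group means were removed. Relative to the cardiomyocyte markers both ventricular light chains overlapped between the groups: Myl3 averaged 103 against 102 and Myl2 201 against 214 per 1000 CPM of markers in Mib1 mutant and Cre control pools (exact permutation p of 0.8 and 0.4).

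The ratio of the regulatory light chains separated the Mib1 mutant pools from those of the Cre control. Myl7 as a share of Myl7 plus Myl2, per kb of coding sequence, averaged 2.43% ± 0.588 in WT, 2.93% ± 0.623 in triple heterozygote pools, 2.6% ± 0.34 in Cre control pools and 4.76% ± 0.578 in Mib1 mutant pools (SD, n = 3 each). Per kb of all annotated exons, where the long alternative Myl2 exons lower that gene's value, the same pools gave 7.56% ± 1.72, 9.02% ± 1.8, 8.06% ± 1 and 14.1% ± 1.54. In both scalings Myl2 was the main chain in every pool. The log2 ratio, whose differences between groups do not depend on length, was -2.64, -2.42 and -2.78 in Mib1 mutant pools and -3.38, -3.75 and -3.43 in Cre control pools. These groups did not overlap and differed by 0.91, a 1.87-fold higher ratio, with an exact two-sided permutation p of 0.1 (the smallest possible; 0.45 with Benjamini-Hochberg adjustment over 9 ratio tests). The triple heterozygote ratio differed from WT by 0.28 (exact permutation p 0.3) and the Cre control differed from WT by 0.12 (exact permutation p 0.8), both with overlapping pools.

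The essential light chain pair gave the other non-overlapping ratio. Myl4 made up 26% ± 1.31 of Myl4 plus Myl3 per kb of coding sequence in the triple heterozygote and 23.4% ± 1.07 in WT (SD, n = 3), or 12.8% ± 0.759 and 11.3% ± 0.598 per kb of all annotated exons. The log2 ratio was higher by 0.21, or 1.15-fold (exact permutation p 0.1, the smallest possible; adjusted 0.45). In the Mib1 mutant the share was 24% ± 3.33 against 22.4% ± 1.63 in Cre control pools per kb of coding sequence (11.7% ± 1.86 and 10.7% ± 0.898 per kb of exons), and the log2 ratio differed by 0.13 with overlapping pools (exact permutation p 0.5).

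**Figure D2:**
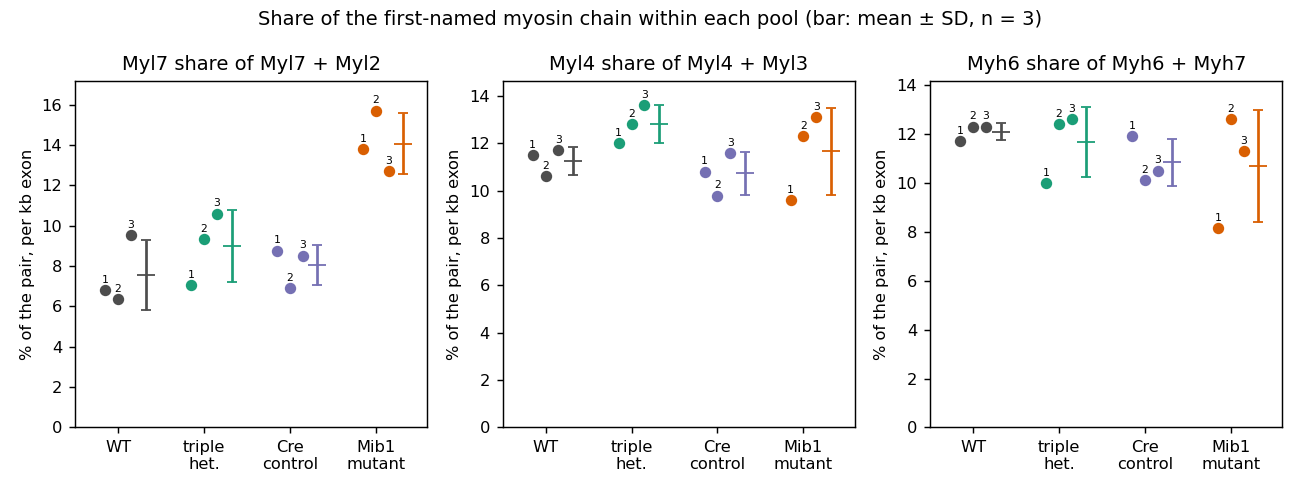
Share of the first-named gene in each myosin pair (y axis, percent of the summed level of both genes per kb of exon, from 0) in every pool by genotype (x axis); numbered points are replicates and the bar is the mean ± SD (n = 3). The 3 Mib1 mutant pools lie at 12.7% to 15.7% for Myl7 against 6.92% to 8.76% in Cre control pools, while the Myh6 shares of all genotypes overlap.

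Myh6 and Myh7, the alpha and beta heavy chains, lie next to each other on the minus strand of chromosome 14 (ENSMUSG00000040752, 54941921 to 54966927, and ENSMUSG00000053093, 54970684 to 54994626). Myh6 held 1943, 2040 and 2096 CPM in WT, 1573, 2171 and 1991 in triple heterozygote pools, 1884, 1687 and 1850 in Cre control pools and 1163, 2054 and 1853 in Mib1 mutant pools. Myh7 held 18805, 18629 and 19189 CPM in WT, 18141, 19702 and 17773 in triple heterozygote pools, 17864, 19320 and 20195 in Cre control pools and 16821, 18195 and 18622 in Mib1 mutant pools. Myh7 varied least of the 9 genes, by 1.2-fold from the lowest to the highest of the 12 pools. The Mib1 mutant differed from the Cre control by -0.10 for Myh6 (SE 0.16, 95% interval -0.43 to 0.24, edgeR adjusted p 0.849) and by -0.10 for Myh7 (SE 0.06, 95% interval -0.22 to 0.03, edgeR adjusted p 0.509). Without Mib1 mutant replicate 1 the Myh6 difference turned to 0.11. Triple heterozygote differences from WT were -0.08 (SE 0.16, edgeR adjusted p 0.892) and -0.03 (SE 0.06, edgeR adjusted p 0.915). The beta chain dominated everywhere: per kb of coding sequence Myh6 made up 9.68% ± 0.286 of the pair in WT, 9.31% ± 1.17 in triple heterozygote pools, 8.64% ± 0.786 in Cre control pools and 8.54% ± 1.89 in Mib1 mutant pools (SD, n = 3). The log2 ratio of Myh6 to Myh7 differed by -0.04 in Mib1 mutant pools (exact permutation p 0.9), by -0.07 in triple heterozygote pools (exact permutation p 1) and by -0.18 between the Cre control and WT (exact permutation p 0.2).

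Mhrt, an RNA transcribed from the strand opposite Myh7 and overlapping it, ranged from 13.2 to 113 CPM over the 12 pools. Its spread within the Cre control (98, 113 and 43.3 CPM) and within the Mib1 mutant (84.8, 27.6 and 76.8 CPM) was wider than the difference between them, -0.42 (SE 0.50, edgeR adjusted p 0.771). The library kit keeps strand, but whether the counting used it is not given in the sources used here, so reads of Mhrt and Myh7 in the shared stretch cannot be told apart with certainty. The same holds for Myl3 and Pth1r, which overlap on opposite strands.

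Nr2f1 (ENSMUSG00000069171; chromosome 13, 78188973 to 78199757, minus strand) was the lowest of the 9, with 36 to 90 reads in a pool. Its level was 3.64, 5.89 and 5.92 CPM in WT, 3.72, 4.07 and 5.85 in triple heterozygote pools, 3.48, 4.16 and 4.46 in Cre control pools and 5.42, 3.82 and 3.19 in Mib1 mutant pools. All groups overlapped, and the 95% interval of the Mib1 mutant difference, -0.52 to 0.58 around 0.03, was the widest of the 9 in that comparison (edgeR adjusted p 0.98). At this depth a change smaller than about that interval was not detectable. Nr2f2 (ENSMUSG00000030551; chromosome 7, 70351944 to 70366735, minus strand) was measured more firmly, with 303 to 686 reads in a pool.

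Nr2f2 held 32.8, 32.3 and 35.2 CPM in WT, 35.4, 31 and 38 in triple heterozygote pools, 30.2, 26.8 and 29.5 in Cre control pools and 30.2, 35.9 and 29.3 in Mib1 mutant pools. The Mib1 mutant and Cre control pools overlapped, with a difference of 0.14 (SE 0.10, 95% interval -0.07 to 0.35, edgeR adjusted p 0.59), and the triple heterozygote differed from WT by 0.05 (SE 0.10, edgeR adjusted p 0.894). Between the control groups all Cre control pools lay below all WT pools, at a difference of -0.21 (SE 0.10, edgeR adjusted p 0.593). That downward separation was also seen for Myh6 and Pam, so 3 of the 9 showed it between the controls, where 10.2% of all genes did. Per 1000 CPM of the cardiomyocyte markers Nr2f2 averaged 1.35 in Mib1 mutant pools and 1.04 in Cre control pools, 1.3-fold higher without overlap (exact permutation p 0.1, the smallest possible, unadjusted). On that scale the Cre control also lay below WT without overlap (means 1.04 and 1.22, exact permutation p 0.1). The Mib1 mutant pools, at 1.49, 1.39 and 1.16, overlapped the WT pools, at 1.22, 1.18 and 1.28. The marker sum that divides Nr2f2 was itself lower, at 20332 to 25860 CPM in Mib1 mutant pools against 26947 to 29402 in Cre control pools. Nr2f2 is also active outside cardiomyocytes, so this scale is not a level per cell that expresses it.

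Pam (ENSMUSG00000026335; chromosome 1, 97795114 to 98095646, minus strand), the amidating enzyme of peptide granules, was the member that passed. It held 1966, 1752 and 1844 CPM in WT, 1582, 1590 and 1754 in triple heterozygote pools, 1519, 1447 and 1593 in Cre control pools and 1241, 1139 and 1251 in Mib1 mutant pools. Every Mib1 mutant pool lay below every Cre control pool, and every Cre control pool lay below every WT pool. Pam fell 1.26-fold in the Mib1 mutant, from 1520 ± 73 to 1210 ± 61.5 CPM (SD, n = 3), a difference of -0.33 (SE 0.07, 95% interval -0.48 to -0.18) at an edgeR adjusted p of 0.025. The Cre control lay below WT, at 1854 ± 107 CPM, by a difference of similar size, -0.29 (SE 0.07, 95% interval -0.43 to -0.14), which did not pass with edgeR (adjusted p 0.132) and passed with DESeq2 (adjusted p 0.0114). In the triple heterozygote, at 1642 ± 97.2 CPM, the difference from WT was -0.18 (SE 0.07, edgeR adjusted p 0.565), with 1754 CPM in replicate 3 reaching just above the lowest WT pool at 1752. The effects in the Mib1 mutant and the triple heterozygote differed by -0.15 (95% interval -0.36 to 0.05, edgeR adjusted p 0.486).

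The Pam call depended on the processing. It was lost without Cre control replicate 1 (-0.33, edgeR adjusted p 0.0801), without Cre control replicate 3 (-0.29, edgeR adjusted p 0.119), without the pools near 0 for Xist (-0.35, edgeR adjusted p 0.0979), with only the 6 libraries compared in the fit (edgeR adjusted p 0.0941) and with scaling by library totals alone (-0.29, edgeR adjusted p 0.0561). It held with limma-voom (adjusted p 0.0267) and DESeq2 (adjusted p 0.000245). Per 1000 CPM of the cardiomyocyte markers, Pam was 61, 44.1 and 49.6 in Mib1 mutant pools and 56.4, 49.2 and 57.8 in Cre control pools, so on that scale the groups overlapped (means 51.6 and 54.5, exact permutation p 0.7). On the same scale the Cre control stayed below WT without overlap (54.5 against 68, exact permutation p 0.1, the smallest possible). Of the 10 cardiomyocyte markers 0 passed with edgeR in the Mib1 mutant, while DESeq2 called 1 and limma-voom 0. An unadjusted p under 0.05 was found for 4 of them, all lower, against 14% of all genes.

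**Figure D3:**
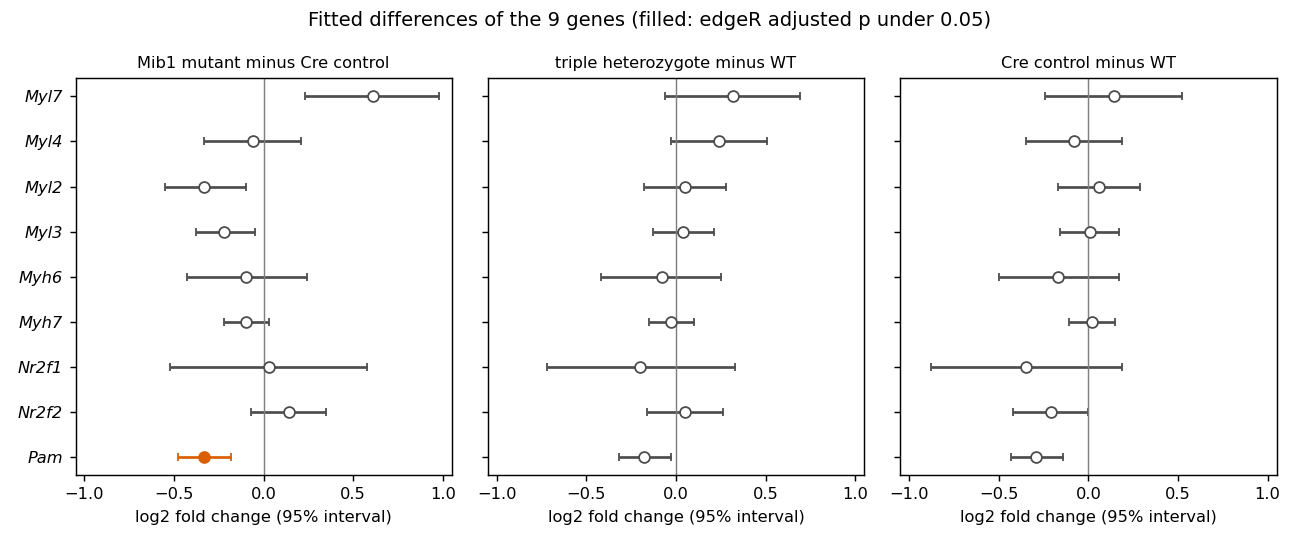
Log2 fold changes of the 9 genes (x axis) with their 95% intervals in 3 comparisons (panels); filled points passed at an edgeR adjusted p under 0.05. Pam in the Mib1 mutant is the filled point, at -0.33, and Myl7 in Mib1 mutant pools lies farthest from 0, at 0.61 with an interval that reaches from 0.23 to 0.98.

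Promoter sequence is shown for Myl7 and Pam, whose groups separated in the Mib1 mutant and whose start sites are the same in RefSeq and GENCODE. Myl3, which also separated, is left out because its start differs between those annotations. The 250 bases before each RefSeq start site on GRCm38.p6 follow, 5′ to 3′ on the gene's strand, with matches of the CArG box, the binding sequence of serum response factor, in capitals.
Myl7, chr11:5898783-5899032, minus strand: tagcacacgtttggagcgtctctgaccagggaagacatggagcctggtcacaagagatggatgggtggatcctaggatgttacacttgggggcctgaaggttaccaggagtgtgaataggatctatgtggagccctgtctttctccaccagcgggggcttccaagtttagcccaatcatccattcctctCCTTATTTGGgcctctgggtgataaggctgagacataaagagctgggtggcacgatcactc
Pam, chr1:98095647-98095896, minus strand: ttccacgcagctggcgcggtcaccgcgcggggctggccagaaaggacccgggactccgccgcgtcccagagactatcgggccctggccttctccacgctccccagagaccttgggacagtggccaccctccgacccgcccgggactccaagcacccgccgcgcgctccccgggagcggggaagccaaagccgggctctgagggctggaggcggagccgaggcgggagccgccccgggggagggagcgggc
The CArG box begins 61 bases before the Myl7 start, and 1.47% of 32851 promoter windows of this length hold one. The window of Myl3, not shown, also holds a CArG box, at position -85 from its RefSeq start. The Pam window is 75.6% G and C against 52.8% for Myl7, and none of the searched motifs occurs in it. The nuclear receptor half-site AGGTCA, searched like the others on both strands, occurs in 14% of all windows. The RBPJ site TGGGAA, bound by the DNA-binding partner of Notch, occurs in 21.6%. The T-box site AGGTGT is found in 11.8% and the site AGATAA of zinc-finger factors such as Gata4 in 9.99%. The TATA box, searched as TATAAA, is in 12.4% and the MEF2 site in 2.92%. None of these occurs in either window shown, which says only that these letters are not there. Other forms of these sites were not searched. The Myl7 window holds TGATAA, for example, which differs from AGATAA in its first base.

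Among other genes of the atrial programme, those that passed in the Mib1 mutant all fell. From a list of 18 atrial genes 17 were tested, with a median of -0.21 in the Mib1 mutant. There 0 passed upward and 6 downward with edgeR, where 0.909% and 0.594% of all genes did. An unadjusted p under 0.05 was found for 1 upward and 7 downward, against 14% of all genes in either direction. DESeq2 and limma-voom also called 0 upward and 6 downward. The list was drawn up with results of these data known, so its counts are a description. Several of these genes are also known in the trabeculae or conduction system of fetal ventricles. Angpt1, a ligand of the Tie2 receptor, fell by 2.05 (SE 0.18, edgeR adjusted p 2.64e-05), and Bmp10, a growth factor of trabecular muscle, fell by 2.62 (SE 0.30, edgeR adjusted p 0.000273). The connexin gene Gja5 held 125, 92.6 and 114 CPM in Cre control pools and 60.9, 37.4 and 45.4 in Mib1 mutant pools, a difference of -1.21 (SE 0.14, edgeR adjusted p 0.000291). The natriuretic peptide gene Nppa, whose product Pam accompanies in atrial granules, held 841, 887 and 810 CPM in Cre control pools and 175, 481 and 299 in Mib1 mutant pools, a difference of -1.41 (SE 0.23, edgeR adjusted p 0.00485; 0.0562 with only the libraries compared). The potassium channel genes Kcnk3 and Kcnj3 each fell by 0.91 (SE 0.12 and 0.15, edgeR adjusted p 0.000641 and 0.0059). In the triple heterozygote 0 of the 17 passed with edgeR, DESeq2 or limma-voom. An unadjusted p under 0.05 was found there for 1, against 8.66% of all genes. For 5 of the 6 that passed in the Mib1 mutant, all but Kcnj3, the difference between the effects passed too. Over all genes 0.516% passed for that difference. For Nppa this call was lost in 10 of the 12 fits that left out 1 pool.

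Of 17 listed genes of the ventricular programme, all tested, 1 passed upward and 1 downward in the Mib1 mutant with edgeR and with limma-voom. Over all genes 0.909% passed upward and 0.594% downward with edgeR. DESeq2 called 3 of the 17 in each direction, and it also called more genes in total (given below). An unadjusted p under 0.05 was found for 7 of the 17, against 14% of all genes. The median of the 17 was 0.09. The T-box repressor gene Tbx20 rose from 529 ± 18.8 to 660 ± 18.7 CPM (0.32, SE 0.07, edgeR adjusted p 0.0251), a call lost without any of Cre control replicates 1, 2 and 3 or Mib1 mutant replicate 1 (adjusted p 0.0502, 0.118, 0.108 and 0.0749), with only the libraries compared (0.109) and without the pools near 0 for Xist (0.112). The homeobox gene Irx2, expressed in ventricular muscle, fell from 25.9 ± 2.11 to 15.9 ± 2.47 CPM (-0.70, SE 0.13, edgeR adjusted p 0.00961), lost without Cre control replicate 2 (0.0527), without Mib1 mutant replicate 3 (0.0511) or without the pools near 0 for Xist (0.112). Irx4, the repressor of atrial genes in ventricles, was 73 to 77.2 CPM in Cre control pools and 78.6 to 82.9 in Mib1 mutant pools, a difference of 0.11 (SE 0.09, edgeR adjusted p 0.624). Hey2, the Notch-responsive repressor of atrial genes in compact muscle, was 199 to 219 CPM in Cre control pools and 182 to 234 in Mib1 mutant pools, at a difference of -0.04 (SE 0.10, edgeR adjusted p 0.92). Among them 0 of 17 passed in triple heterozygote pools with edgeR, DESeq2 or limma-voom. An unadjusted p under 0.05 was found there for 3, against 8.66% of all genes.

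**Figure D4:**
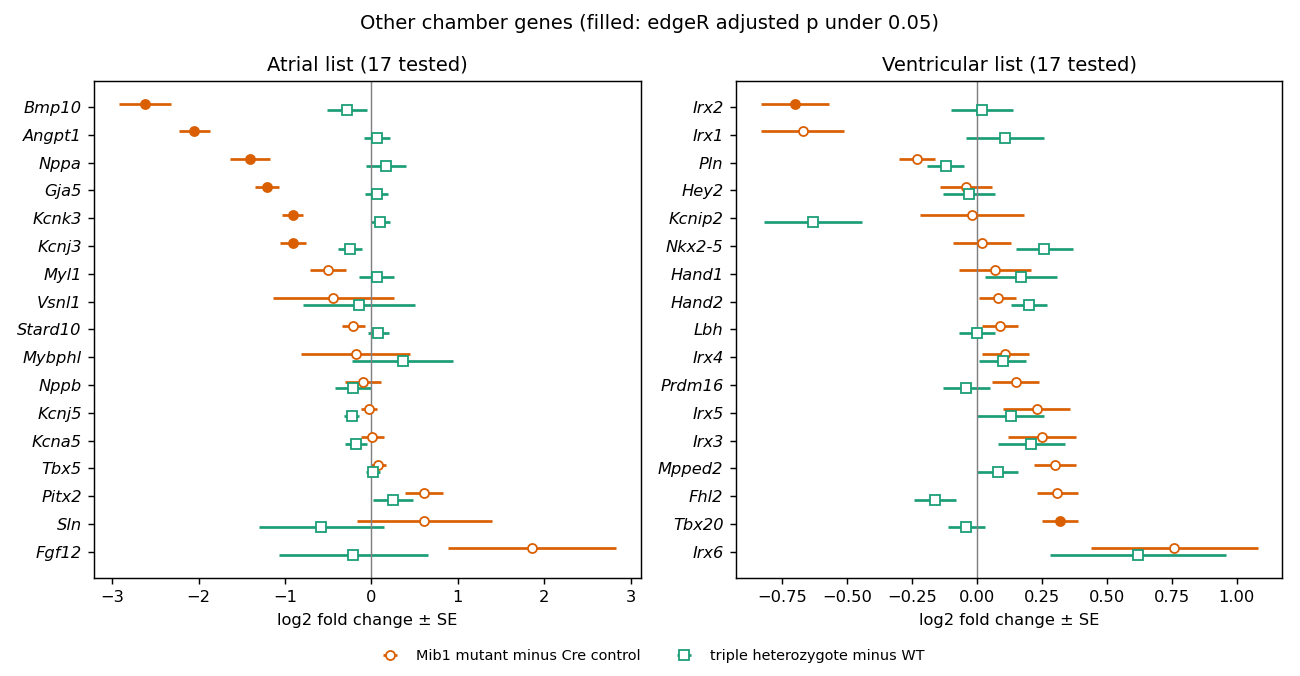
Log2 fold changes ± SE (x axis) of 17 atrial (left) and 17 ventricular (right) list genes between Mib1 mutant and Cre control (circles) and the triple heterozygote against WT (squares); filled symbols passed at an edgeR adjusted p under 0.05. Bmp10, Angpt1, Nppa, Gja5, Kcnk3 and Kcnj3 are filled to the left of 0 in Mib1 mutant pools, and no square is filled.

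Few other genes of the myosin filament passed the test. In the Mib1 mutant 1.5% of all genes passed with edgeR, and 14% had an unadjusted p under 0.05. Of 7 further light chain genes tested, 0 passed in any of the 4 contrasts with edgeR, DESeq2 or limma-voom; in the Mib1 mutant 1 had an unadjusted p under 0.05. Of 7 tested kinase and phosphatase genes that act on the regulatory light chains, 0 passed in any contrast with any of those tools, and 1 had an unadjusted p under 0.05 in Mib1 mutant pools. Of 6 further heavy chain genes tested, Myh7b passed in the Mib1 mutant: a slow myosin gene, it held 94.2, 122 and 98 CPM in Cre control pools and 63, 76.1 and 69.2 in Mib1 mutant pools, a difference of -0.59 (SE 0.12, edgeR adjusted p 0.0233). WT pools held 63.6, 72.1 and 84.1 CPM of Myh7b, overlapping the Mib1 mutant, and the Cre control differed from WT by 0.51 (SE 0.12, edgeR adjusted p 0.123). The call was lost without any of Cre control replicates 2 and 3 and Mib1 mutant replicates 1 and 3 (edgeR adjusted p 0.12, 0.0531, 0.0992 and 0.0703) and without the pools near 0 for Xist (0.105). Of 8 tested myosin-binding and assembly genes 0 passed in the Mib1 mutant with edgeR (4 had an unadjusted p under 0.05; DESeq2 called 1 higher and 3 lower, limma-voom 0).

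The lists of venous markers and of granule peptide genes gave 1 call each in the Mib1 mutant, Aplnr and Nppa. Over all genes 1.5% passed in that comparison with edgeR. Of 11 partners and targets of the nuclear receptors, among them Gata4, Zfpm2 and Nrp2, 0 passed with edgeR, DESeq2 or limma-voom, and 0 had an unadjusted p under 0.05 in any of the 4 contrasts. Aplnr, a receptor gene of venous endothelium, where Nr2f2 acts, fell by 0.90 (SE 0.09, edgeR adjusted p 6.17e-05), 1 of 4 tested venous markers to pass. Of those 4, 2 were higher and 2 lower in the Mib1 mutant, with a median of -0.00. Of 7 tested genes for granule peptides and their processing enzymes, 1 (Nppa) passed.

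Across the 12 pools, the genes whose log2 CPM most resembled each member were sought among 9443 protein-coding genes with a mean of at least 10 CPM. The pools share genotype and cell composition, so these correlations are descriptions. Myl7 was most like Txndc5 (Pearson r 0.96), an endoplasmic reticulum protein, and Ptn and Bgn, which encode secreted proteins of the matrix (0.90 each). After group means were removed, Pop7, Cdkn1c and Txndc5 came closest to Myl7 (0.93, 0.91 and 0.90). Myl2 was most like the mitochondrial genes Ndufb6, Ndufb10 and Atp5o (0.99, 0.98 and 0.98), and Myl3 most like Phb, Pgam2 and Ndufb10 (0.98, 0.98 and 0.97). Pam was most like Acot11, Ttc17 and Sema3a (0.95, 0.95 and 0.94). Myh7 was closest to the sarcomere gene Actn2 (0.88), Myh6 to Ywhag (0.91), Myl4 to Ran (0.95), Nr2f2 to Rbbp8 (0.91) and Nr2f1, with its few reads, to Tcta (0.81).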

How the data were processed

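Ventricles were pooled within a genotype and sequenced as single reads of 60 bases from libraries that keep strand, per the labels' protocols. The authors deposited RSEM expected counts per gene, which need not be whole (9.64% of values were not); bcl2fastq 2.20.0.422, cutadapt, RSEM and limma are named in the submitters' processing notes with the build GRCm38, with no aligner or annotation given in the sources used here. Columns named MUT were assigned to the triple heterozygote because their names hold neither flox nor Cre, an inference from names; 0 columns were left out. Gene identifiers were matched to GENCODE M21 (36429 of 38293).

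Counts were rounded and fitted in edgeR 4.0.16 (R 4.3.3, quasi-likelihood, TMM scaling, filterByExpr) with all 12 libraries in 4 groups and 8 residual degrees of freedom; 13964 genes with 99.9% of the counts were tested, two-sided. The SE is the log2 fold change divided by the square root of F. Log2 CPM used a prior count of 2. Ratios and values per cardiomyocyte marker were compared with exact two-sided permutation tests. Replicates are separate pools, and whether pools shared litters is not stated. The chamber genes, the other lists and the tests were chosen with earlier results of these data known. Named were the 9 genes, the targeted genes, up to 6 genes by p that passed in each list, and the 3 genes most like each member. Mhrt, Sln, Mybphl, Fgf12, Irx4, Hey2 and Myh11 were picked after their values were seen. A further gene list is not reported here.

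Alternatives were DESeq2 1.42.0, limma-voom (limma 3.58.1), other scalings and filters, a replicate block, fewer libraries and each replicate left out; the coding-length scale and the values per cardiomyocyte marker were chosen after seeing the data. The code was tested on simulated data. Promoters came from RefSeq on GRCm38.p6; all 9 genes matched, and windows shared between transcripts came from GENCODE M21.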

Additional observations from a re-analysis of the deposited data

Results flagged for a closer look

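For 15 genes of the lists, none of them a chamber gene of the 9, the effect in the Mib1 mutant differed from that in the triple heterozygote by edgeR's quasi-likelihood test of the difference itself, with Benjamini-Hochberg adjustment. Values are log2 differences between the effects. Among atrial list genes, the difference was -2.11 for Angpt1, -2.34 for Bmp10, -1.26 for Gja5, -1.01 for Kcnk3 and -1.58 for Nppa, each lower in the Mib1 mutant. It was 2.04 for the calcium channel gene Cacna1g, which the sinus node uses, with 76 to 89.1 CPM in Mib1 mutant pools and 15.2 to 25.9 CPM in the other 9 pools. The M-band gene Myom2 gave 1.26, with 73.1, 110 and 95 CPM in Cre control pools, 153, 152 and 115 in Mib1 mutant pools, 122, 122 and 118 in WT and 60.2, 78.9 and 88.7 in the triple heterozygote. Markers of other cells gave -0.84 for Aplnr, 1.10 for Tagln and -1.20 for Lyz2. Erythroid genes gave -1.03 for Hba-a2, -0.93 for Hba-a1, -0.76 for Hbb-bs, -0.90 for Alas2 and -0.87 for Hbb-bt. With each of the 12 pools left out in turn, the call held every time for Angpt1, Bmp10, Gja5, Kcnk3, Cacna1g, Aplnr and Hba-a2. It was lost in 10 of the 12 fits for Nppa, Tagln and Hbb-bt (highest adjusted p 0.134, 0.0991 and 0.126), and held without Mib1 mutant replicate 1 or 2. It was lost in 8 for Lyz2, Hbb-bs and Alas2 (0.102, 0.112 and 0.122) and in 4 for Hba-a1 (0.0654: WT replicates 1 and 3, triple heterozygote replicate 2 and Mib1 mutant replicate 3). For Myom2 it was lost without WT replicate 2 or triple heterozygote replicate 2 (up to 0.0523) and without the pools near 0 for Xist (1.03, adjusted p 0.068), which also lost Alas2 (0.117). With scaling by library totals alone it was lost for Alas2, Hbb-bs and Hbb-bt (0.0571, 0.0553 and 0.0611). Reads of the near-identical alpha globin genes cannot be divided with certainty.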

How the results depend on the processing

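Depth limits Nr2f1 (36 to 90 reads in a pool) most, and 3 pools per group cannot bring a permutation test below 0.1. Over the 4 contrasts and their alternatives, the single-gene values of the 9 chamber genes kept direction and side of the threshold in 583 cases, reversed in 28, passed newly in 4 and lost the call in 5; the causes were not tested. All genes passing in the Mib1 mutant comparison numbered 210, against 416 with DESeq2, 476 with no filter on low counts, 93 with only the libraries compared, 110 without the pools near 0 for Xist and 116 to 415 with a replicate left out (415 without Mib1 mutant replicate 2). With scaling by library totals alone 172 of 244 were higher, against 127 of 210, and in the triple heterozygote 1 of 2 against 2 of 3. The triple heterozygote comparison gave 3, against 22 with DESeq2, 54 with no filter, 10 with only the libraries compared, 1 without erythroid genes, 7 without the pools near 0 for Xist and 1 to 3 with a replicate left out. The difference between the effects gave 72, against 167 with DESeq2, 246 with no filter, 41 without the pools near 0 for Xist and 28 to 233 with a replicate left out. The control comparison gave 39, against 82, 144 and 68 with DESeq2, no filter and only the libraries compared, and 23 to 42 with a replicate left out.

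Chamber genes passing in the Mib1 mutant numbered 1, against 0 with library totals alone, with only the libraries compared and without the pools near 0 for Xist, 3 with no filter, and 0 to 2 with a replicate left out. Between the controls the count was 0, against 1 with DESeq2. Leaving out a replicate moved the log2 ratio of Myh6 to Myh7 between -0.188 and 0.166 in the Mib1 mutant and between -0.135 and 0.050 in the triple heterozygote, and that of Myl7 to Myl2 between the controls from -0.007 to 0.311. Among the reversals of single chamber genes, Nr2f1 was -0.02 with limma-voom in the Mib1 mutant, and the difference between the effects on Myh6 was 0.01 with library totals alone. Without the pools near 0 for Xist, the Mib1 mutant differences were 0.09 for Myl4, 0.14 for Myh6 and -0.31 for Nr2f1, and the differences between the effects were 0.21 for Myh6 and -0.12 for Nr2f1. With a replicate left out, the ranges in the Mib1 mutant were -0.17 to 0.11 for Myl4, -0.26 to 0.11 for Myh6 and -0.22 to 0.18 for Nr2f1. In the triple heterozygote they were -0.00 to 0.12 for Myl2, -0.01 to 0.11 for Myl3, -0.19 to 0.04 for Myh6, -0.07 to 0.00 for Myh7 and -0.02 to 0.14 for Nr2f2. For the difference between the effects they were -0.18 to 0.18 for Myh6, -0.03 to 0.42 for Nr2f1 and -0.01 to 0.16 for Nr2f2, and between the controls -0.04 to 0.13 for Myl2, -0.05 to 0.04 for Myl3 and -0.02 to 0.06 for Myh7.

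Same-numbered pools of the Mib1 mutant and the Cre control deviated together with r of 0.125, 0.166 and 0.014. Such values cannot decide whether the replicate numbers pair the samples. Xist was highest of its group in replicate 1 of WT (378 CPM) and of the triple heterozygote (355 CPM). It was near 0 in replicate 1 of the Cre control (0.387 CPM) and of the Mib1 mutant (0.095 CPM). With the replicate number as a block, 318 genes passed in the Mib1 mutant comparison, 109 for the difference between the effects and 59 between the controls, and Pam had an adjusted p of 0.00941 in the Mib1 mutant; the Hba-a1 call in the triple heterozygote was lost (adjusted p 0.0564).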

Other observations

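Markers of other cell types were described beside the chamber genes. Of 8 tested markers of vessel wall muscle, Tagln, an actin-binding protein, rose in the Mib1 mutant from 28 ± 0.808 to 72.2 ± 19.8 CPM (SD, n = 3; log2 difference 1.37, SE 0.15, edgeR adjusted p 0.000179). Of the 8, 4 were higher and 4 lower, with a median of 0.05; Myh11, the smooth muscle heavy chain, differed by -1.37 (SE 0.44, edgeR adjusted p 0.153). The highest Tagln pool was Mib1 mutant replicate 2 at 93 CPM, which also held the most Myl7. Of 10 tested leukocyte markers, 9 were lower and 1 higher in the Mib1 mutant, with a median of -0.59. An unadjusted p under 0.05 was found for 7, all lower, against 14% of all genes. Their summed level was 67.2 to 88.9 CPM in Mib1 mutant pools and 99.2 to 119 in Cre control pools. With edgeR 2 passed, where 1.5% of all genes did. Lyz2, lysozyme of myeloid cells, fell from 25.1 ± 4.01 to 12.4 ± 3.2 CPM (-1.02, SE 0.17, adjusted p 0.00455). C1qb, a complement gene of macrophages, fell from 10.2 ± 0.908 to 6.68 ± 0.725 CPM (-0.61, SE 0.13, adjusted p 0.0289). The C1qb call was lost without Cre control replicate 2 or 3 and without Mib1 mutant replicate 2 or 3 (adjusted p 0.0822, 0.129, 0.0569 and 0.0784), and with only the libraries compared (0.145).

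All 11 tested erythroid genes were higher in the triple heterozygote than in WT, with a median of 0.63. An unadjusted p under 0.05 was found for 8 of them, against 8.66% of all genes, and DESeq2 called 5 and limma-voom 2. With edgeR 2 passed in the triple heterozygote, Hba-a2 at 0.80 (SE 0.11, edgeR adjusted p 0.0189) and Hba-a1 at 0.76 (SE 0.11, edgeR adjusted p 0.0351). The summed erythroid level was 7185 to 8404 CPM there and 4416 to 5182 in WT. Both calls were lost without any of the WT replicates and without triple heterozygote replicate 2 (adjusted p 0.071 to 0.204 for Hba-a2 and 0.0948 to 0.398 for Hba-a1). The Hba-a1 call was also lost without triple heterozygote replicate 3 (0.0901) and with library totals alone (0.0505). With erythroid genes left out of the fit, the Pam difference in the triple heterozygote was -0.18, as with them.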
